A study of Mus musculus with 7 samples.

Results

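Tight junctions of the lung hold many proteins besides the claudins, and 9 of their genes were followed here in claudin-18 knockout and wild-type lungs. They were Ocln and Marveld3 of the occludin family, the angulin Lsr, the immunoglobulin-like proteins F11r, Jam2 and Cxadr, the scaffold Tjp1 (ZO-1), and the linkers Cgnl1 and Mpdz. The members were all probes of the signal table whose gene symbol was 1 of these names, which gave 18 of 25697 probes and 9 of 16593 named genes. Whole lungs of male mice were profiled on Illumina bead arrays, with 3 arrays from Cldn18 knockouts and 4 from wild types. In the knockout, Cre from a CMV-cre deleter strain had removed exons 2 and 3 of the floxed allele in the whole body. The wild type carried no deletion, and the labels give neither its Cre status nor whether it came from the same litters. Mice of both genotypes were untreated and 3 to 4 months old, and their strain background mixed Balb/c, C57BL/6J and 129S6/SvEvTac. Whether every array stands for its own animal is not stated, and p-values here describe the spread among these arrays, which may be technical. All 7 arrays lay on 1 slide at positions grouped by genotype, so position and genotype cannot be told apart.

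A tight junction seals the space between neighbouring cells of an epithelium or endothelium. Claudins form its strands, occludin and its MARVEL relatives lie in the same strands, and angulins mark the points where cells meet in threes. Proteins of the JAM and CAR family bind the neighbouring cell beside the strands. On the inner side, ZO proteins tie these membrane proteins to actin, while cingulin relatives and multi-PDZ proteins link them to the polarity complexes and to other proteins of the cell cortex. In the lung, claudin-18 is made by alveolar epithelial cells, whereas ZO-1 and JAM-A, the F11r protein, are found in epithelium and endothelium alike.

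Lsr and Tjp1, whose levels differed between genotypes, have a promoter window in the RefSeq tables of build GRCm38.p6, as do Ocln, F11r and Cgnl1. Each window covers 250 bases before and 50 after a start site, read 5′ to 3′ along the gene's strand. Lsr is shown because it had the largest rise among the calls, Tjp1 because it was the call that fell, and Ocln as the founding member of the group. Capitals mark the E-box CAGGTG or its reverse complement CACCTG, a sequence bound by the SNAI and ZEB repressors. The Lsr window is chr7:30973420-30973719 on the minus strand, the Tjp1 window chr7:65371195-65371494 on the minus strand, and the Ocln window chr13:100552669-100552968 on the minus strand.
Lsr: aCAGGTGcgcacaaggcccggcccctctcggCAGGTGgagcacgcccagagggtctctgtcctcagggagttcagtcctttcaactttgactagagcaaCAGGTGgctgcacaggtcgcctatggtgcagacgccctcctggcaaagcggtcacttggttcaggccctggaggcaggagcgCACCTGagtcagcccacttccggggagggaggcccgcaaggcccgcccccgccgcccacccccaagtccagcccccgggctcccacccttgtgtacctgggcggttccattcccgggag
Tjp1: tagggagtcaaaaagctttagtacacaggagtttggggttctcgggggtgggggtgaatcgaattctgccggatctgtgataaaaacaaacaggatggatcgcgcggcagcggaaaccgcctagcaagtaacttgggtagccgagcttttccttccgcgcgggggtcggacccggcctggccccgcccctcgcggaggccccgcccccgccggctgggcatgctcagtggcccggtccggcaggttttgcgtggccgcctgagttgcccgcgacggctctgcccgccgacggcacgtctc
Ocln: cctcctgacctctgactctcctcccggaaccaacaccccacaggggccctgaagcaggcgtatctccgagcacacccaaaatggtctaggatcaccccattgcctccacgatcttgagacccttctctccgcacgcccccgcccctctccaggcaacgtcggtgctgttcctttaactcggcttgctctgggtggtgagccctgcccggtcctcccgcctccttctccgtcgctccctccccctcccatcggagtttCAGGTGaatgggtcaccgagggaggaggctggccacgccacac

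The Lsr window held 4 E-box matches, which began 249, 219, 151 and 69 bases before the start site. Of 32841 promoter windows of the same length, 20.2% held at least 1 match and 0.365% held 3 or more. The Tjp1 and Cgnl1 windows held 0 matches and the F11r window held 1. The Ocln window printed above held 1, and a second Ocln window, which overlaps it by 80 bases, held that same match and 1 more. The Tjp1 window lies at a start site inside the annotated gene, which spans chr7:65296165-65527850. The GC box GGGCGG was found in all 6 windows of these 5 genes, against 35.7% of all windows. The AP-1 site TGANTCA was found in the Lsr window, where it shares 2 bases with the last E-box, and in the F11r window, against 7.81% of all windows. The TEAD site GGAATG was found in the Lsr window alone among the 6, against 14.7% of all windows, and the GRHL site AACCNGTT in 0 of 6, against 2.09%. Both strands were searched for each motif. These matches are letters in a window, and no binding was measured.

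The deleted gene was read first as a check of the labels. Its only probe, ILMN_1241689, stood at a log2 level of 10.48, 10.38 and 10.25 in the knockout, against 13.85, 13.94, 14.48 and 14.04 in the wild type. A log2 level here is the background-corrected and quantile-normalized intensity of a probe. Knockout minus wild type, the difference was -3.71 (SE 0.19, limma adjusted p = 4.2e-05). The probe's place relative to exons 2 and 3 is not known. Detected probes ranged from 10291 to 11715 on the knockout arrays and from 11211 to 12376 on the wild-type arrays. Before correction, the median signal ran from 259 to 349 on the knockout arrays, against 355 to 468 on the wild-type arrays. Markers of lung cells were present, with Sftpc, Ager, Scgb1a1 and Pecam1 tested, and the number of arrays limits the precision.

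Of the 18 member probes, 14 were detected (detection p under 0.01) on at least 3 arrays and were tested. They covered all 9 genes. In the knockout 3 genes were higher by at least 1 probe, Lsr, Marveld3 and Cxadr, and 1 gene, Tjp1, was lower. The remaining 5 genes did not pass an adjusted p of 0.05. By the brightest tested probe of each gene, the rule used below for other genes, Lsr, Marveld3 and Tjp1 passed. Cxadr did not (ILMN_3018017, limma adjusted p = 0.262). Of all 8537 genes tested that way, 3.68% were higher and 5.11% lower. Counted in probes, 4 of 14 passed in either direction, where 8.87% of all 11902 tested probes did. Of the 14, 3 rose, where 3.97% of all tested probes rose, and 1 of 14 fell, where 4.91% of all fell. The members were chosen with earlier results of these data known, so these shares are no test of an excess. The probe ILMN_2790839 of Jam2 was tested through wild-type arrays alone. Jam2 ILMN_2790842 and Mpdz ILMN_2662776, each detected on 1 of 3 knockout arrays, also met the filter by their wild-type arrays. All of these had negative changes, so these counts describe the tested probes only. The 3 rises became 1 without knockout 2, without knockout 3 or without wild type 2. The 1 fall became 0 without knockout 2, knockout 3, wild type 3 or wild type 4. Calls over all tested probes also dropped, from 1056 to 333 without knockout 2 and 513 without knockout 3. They numbered 688, 763 and 836 without wild types 2, 3 and 4. The changes of the 14 went both ways, with 8 above zero (57.1%, against 52.0% of all tested probes). Their median log2 change was 0.45, against 0.02 over all tested probes, and it was 0.14 without wild type 2, 0.24 with median scaling or with no background correction, and 0.17 with the authors' values. The changes nearest zero were -0.46 and 0.45, so this median sits at the low end of the positive changes and does not describe a common shift. The knockout arrays lay wholly above the wild-type arrays for 4 of the 14 (13.3% of all tested probes) and wholly below them for 2 (12.4%).

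**Figure D1:**
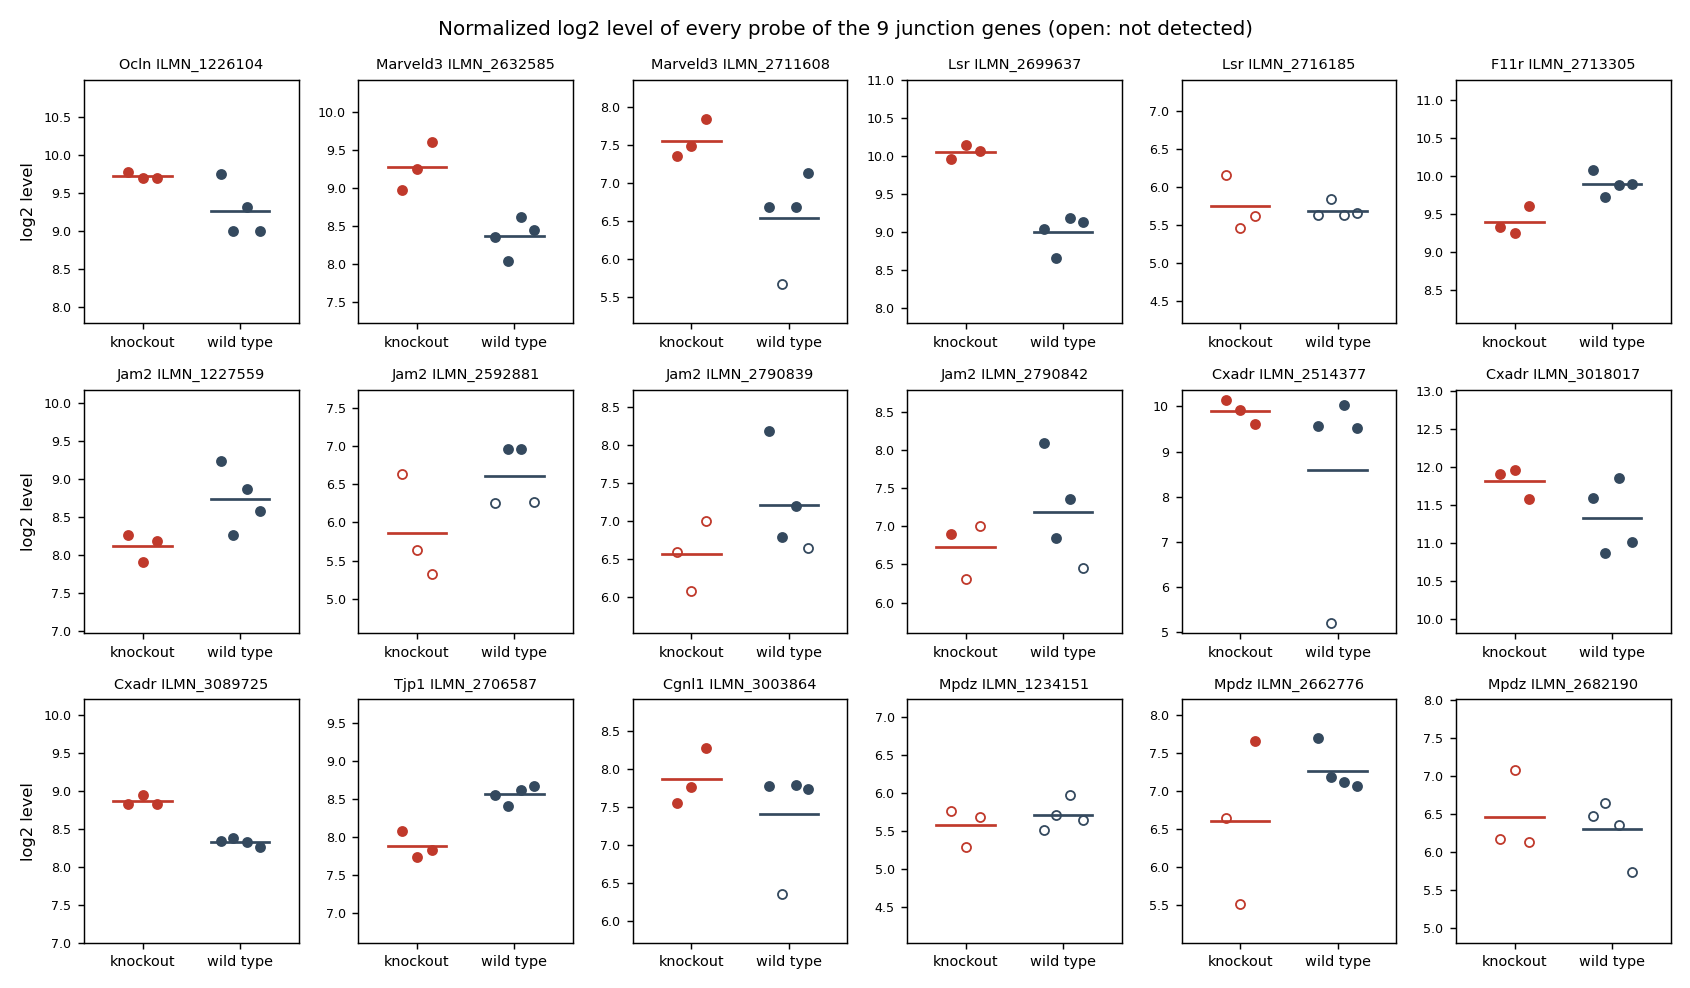
Normalized log2 level (vertical axis, each panel with its own range) of all 18 probes on the 3 knockout and 4 wild-type arrays; points are arrays, bars are group means, and open points mark arrays where the probe was not detected. Lsr ILMN_2699637, Marveld3 ILMN_2632585 and ILMN_2711608, and Cxadr ILMN_3089725 were higher on every knockout array, and Tjp1 and F11r were lower on every knockout array.

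In the occludin family, Marveld3 rose in the knockout and Ocln did not pass. Marveld3 encodes a MARVEL-domain relative of occludin that lies in tight junctions. Its probe ILMN_2632585 stood at 8.98, 9.26 and 9.60 in the knockout, against 8.37, 8.05, 8.62 and 8.45 in the wild type. The lowest knockout array was above the highest wild-type array. Before correction and normalization, the mean signal was 695 in the knockout, against 716 in the wild type. The log2 change came to 0.91 (SE 0.20, 95% interval 0.46 to 1.37, limma adjusted p = 0.0246), or 1.88-fold, and the exact two-sided permutation p over 35 splits was 0.0286, the smallest these group sizes allow. The second probe, ILMN_2711608, stood at 7.35, 7.48 and 7.84 in the knockout, against 6.68, 5.68, 6.68 and 7.14 in the wild type, where it was detected on 3 of 4 arrays. Again the groups did not overlap, and the change of 1.01 (SE 0.31, limma adjusted p = 0.073) did not pass. With the authors' values the changes were 0.45 for the first probe and 0.23 for the second, and with no background correction 0.56 and 0.34. Array weights took the second probe past the threshold (adjusted p = 0.0364), as did leaving out wild type 4 (adjusted p = 0.046). The call on the first probe was lost without knockout 2 (adjusted p = 0.0871), without knockout 3 (adjusted p = 0.0887), without wild type 2 (adjusted p = 0.0566) and under median scaling of the arrays (adjusted p = 0.0784).

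Ocln encodes occludin, the first strand protein of tight junctions to be identified, which has a part in regulating them. Its probe ILMN_1226104 stood at 9.78, 9.69 and 9.69 in the knockout, against 9.75, 8.99, 9.31 and 9.001 in the wild type. The knockout arrays lay close together, while wild type 1 was as high as they were and the other 3 wild-type arrays were lower. The log2 change was 0.46 (95% interval -0.0037 to 0.92, limma adjusted p = 0.197), and the exact permutation p was 0.114. The Ocln change passed without wild type 1, at 0.62 (adjusted p = 0.0417), and with array weights, at 0.52 (adjusted p = 0.046).

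Lsr had the largest change among the calls. The gene encodes angulin-1, which gathers tricellulin at the corners where cells meet and is also known as a lipoprotein receptor of the liver. Its probe ILMN_2699637 stood at 9.96, 10.15 and 10.07 in the knockout, against 9.04, 8.66, 9.19 and 9.13 in the wild type. The gap between the groups was wider than the whole range of either. Before correction and normalization, the mean signal was 1046 in the knockout, against 937 in the wild type. The log2 change was 1.05 (SE 0.17, 95% interval 0.66 to 1.44, limma adjusted p = 0.00779), or 2.07-fold, with an exact permutation p of 0.0286. The call held in all 15 alternatives of processing and array choice, with adjusted p from 0.00152 to 0.0432. With the authors' values the change was 0.65. The second Lsr probe, ILMN_2716185, was detected on 0 of 7 arrays and was not tested. Both probes are annotated to the same RefSeq transcript, so the rise rests on 1 probe.

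The 3 genes of the JAM and CAR family did not move together. Cxadr encodes the coxsackievirus and adenovirus receptor, an adhesion protein at tight junctions of epithelium. Its probe ILMN_3089725 stood at 8.82, 8.94 and 8.83 in the knockout, against 8.33, 8.37, 8.32 and 8.26 in the wild type. Both groups were tight and did not overlap. Before correction and normalization, the mean signal was 591 in the knockout, against 694 in the wild type. On the log2 scale Cxadr rose by 0.54 (SE 0.14, limma adjusted p = 0.0448), or 1.45-fold, with an exact permutation p of 0.0286. This call was the closest to the threshold, and it was lost in 11 of 15 alternatives, among them leaving out any array but wild type 1, and median scaling, where the change was 0.32 (adjusted p = 0.426).

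The other Cxadr probes had the same direction with more spread. ILMN_3018017, the brightest Cxadr probe and annotated to the same transcript as the first, stood at 11.90, 11.97 and 11.58 in the knockout, against 11.60, 10.87, 11.85 and 11.02 in the wild type. Wild types 1 and 3 were within the knockout range, and the change was 0.48 (95% interval -0.08 to 1.05, limma adjusted p = 0.262). ILMN_2514377, annotated to another transcript, stood at 10.15, 9.93 and 9.61 in the knockout, against 9.57, 5.20, 10.03 and 9.53 in the wild type. It was not detected in wild type 2 and was near the knockout level in the other wild-type arrays. Its change of 1.31 (95% interval -0.87 to 3.50, limma adjusted p = 0.438) was 0.19 without wild type 2.

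F11r encodes JAM-A, an adhesion protein of epithelium, endothelium, platelets and leukocytes. Its probe ILMN_2713305 stood at 9.34, 9.26 and 9.61 in the knockout, against 10.08, 9.73, 9.89 and 9.90 in the wild type. Each knockout array was below each wild-type array. The log2 change was -0.50 (95% interval -0.86 to -0.13), with an exact permutation p of 0.0286, but over all probes it did not pass (limma adjusted p = 0.0915). It passed with array weights (adjusted p = 0.0338) and in no other alternative.

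Jam2 encodes JAM-B, which is found mainly in endothelium, including that of lymphatics. Its brightest tested probe, ILMN_1227559, stood at 8.27, 7.91 and 8.18 in the knockout, against 9.24, 8.26, 8.87 and 8.59 in the wild type. Wild type 2 touched the top of the knockout range. The change was -0.62 (95% interval -1.14 to -0.10, limma adjusted p = 0.133), with an exact permutation p of 0.0857. ILMN_2790842, above background in 1 of 3 knockouts and 3 of 4 wild types, gave -0.46 (adjusted p = 0.457), which was -0.16 without wild type 1 and -0.24 without knockout 2. ILMN_2790839, above background in 0 of 3 knockouts and 3 of 4 wild types, had a bound of at least 1.10-fold lower in the knockout (adjusted p = 0.298), with measured means of 6.56 in the knockout and 7.21 in the wild type. Its measured change of -0.64 was -0.32 without wild type 1 and -0.40 without knockout 2. Since it was tested through the wild type alone, its sign adds nothing to that of ILMN_1227559. The same limit holds for ILMN_2790842, whose wild-type arrays alone met the filter. The remaining probe, ILMN_2592881, above background in 0 of 3 knockouts and 2 of 4 wild types, was not tested. Wild type 1 was the highest array for each of the 3 tested probes. Jam2 and Cxadr lie on chromosome 16, 6.41 Mb apart, and their changes had opposite signs.

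**Figure D2:**
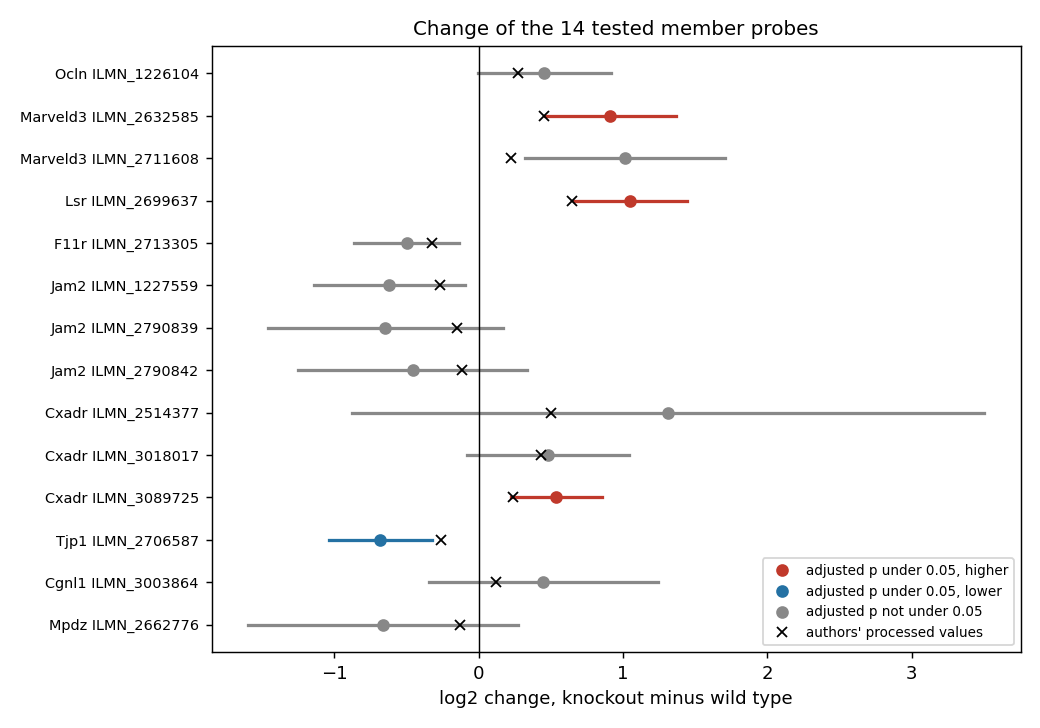
Log2 change, knockout minus wild type (horizontal axis), of the 14 tested probes, with 95% intervals as lines; crosses mark the change in the authors' processed values. Lsr ILMN_2699637 (1.05), Marveld3 ILMN_2632585 (0.91) and Cxadr ILMN_3089725 (0.54) passed as higher and Tjp1 ILMN_2706587 (-0.68) as lower, and the widest interval is that of Cxadr ILMN_2514377.

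Among the scaffolds and linkers, Tjp1 was lower in the knockout. The gene encodes ZO-1, which binds claudin tails through a PDZ domain and ties the junction to actin. Its 1 probe, ILMN_2706587, stood at 8.09, 7.75 and 7.83 in the knockout, against 8.56, 8.41, 8.63 and 8.68 in the wild type. The groups did not overlap. Before correction and normalization, the mean signal was 427 in the knockout, against 768 in the wild type. The log2 change was -0.68 (SE 0.16, 95% interval -1.04 to -0.32, limma adjusted p = 0.0292), which is 62.4% of the wild-type level, with an exact permutation p of 0.0286. The call was lost without knockout 2 (adjusted p = 0.142), knockout 3 (adjusted p = 0.0962), wild type 3 (adjusted p = 0.0708) or wild type 4 (adjusted p = 0.061), and with the authors' values, where the change was -0.26 (adjusted p = 0.0563).

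Cgnl1 encodes paracingulin, a relative of cingulin found at cell junctions. Its probe ILMN_3003864 stood at 7.55, 7.76 and 8.27 in the knockout, against 7.77, 6.35, 7.78 and 7.73 in the wild type. Apart from wild type 2, where the probe was not detected, the wild-type arrays lay within the knockout range. The change was 0.45 (95% interval -0.35 to 1.24, limma adjusted p = 0.463), and 0.10 without wild type 2. Cgnl1 is the only member on chromosome 9, which also carries Cldn18, and it ends 27.88 Mb from it.

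Mpdz encodes MUPP1, a protein with many PDZ domains that gathers claudins and JAM proteins. Of its 3 probes, ILMN_2662776 alone was tested, and its wild-type arrays alone met the filter. It stood at 6.64, 5.51 and 7.66 in the knockout, where it was detected on 1 of 3 arrays, against 7.70, 7.19, 7.12 and 7.06 in the wild type. The knockout arrays spread more widely than the wild-type arrays, with knockout 3 among the wild types. The change was -0.66 (95% interval -1.59 to 0.27, limma adjusted p = 0.351), and it was -0.12 without knockout 2 and -1.19 without knockout 3. The other Mpdz probes, ILMN_1234151 and ILMN_2682190, were detected on 0 of 7 arrays.

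**Figure D3:**
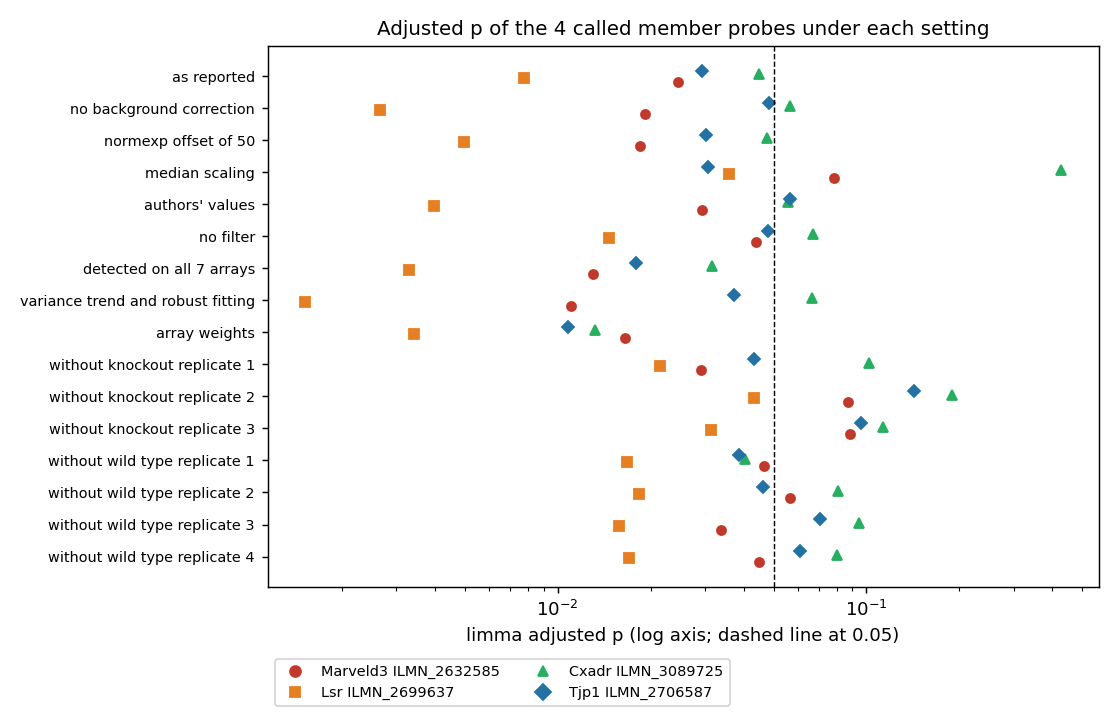
Limma adjusted p (horizontal log axis, dashed line at 0.05) of the 4 called probes as reported and under 15 alternatives of processing or left-out arrays (rows). Lsr lies left of the line in every row, while Marveld3, Tjp1 and Cxadr cross it in 4, 5 and 11 rows.

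The other genes of the tight junction gave few calls. Of 42 further genes in 5 lists, 23 had a tested probe, 8 had probes detected on too few arrays, and 11 were not analysed here. Taking the brightest tested probe of each, 1 of 23 was higher and 0 were lower, against 3.68% and 5.11% of all 8537 genes tested that way. At an unadjusted limma p under 0.05, 3 of the 23 were higher and 3 lower. The share of all genes at that unadjusted level was not computed. Unadjusted counts here and below therefore cannot be called many or few. The changes ran from -0.75 to 0.85, with a median of 0.12. The gene that rose was Igsf5, which encodes JAM4, an immunoglobulin-like adhesion protein that binds MAGI-1. It stood at 10.50, 10.70 and 10.71 in the knockout, against 9.81, 9.49, 10.06 and 9.78 in the wild type, and the groups did not overlap. The change was 0.85 (SE 0.17, limma adjusted p = 0.0183), or 1.81-fold, and its second probe, ILMN_1235512, gave 0.54 (adjusted p = 0.263). The Igsf5 call was lost with median scaling, without knockout 2 and without knockout 3, and without wild type 4 the list had 2 genes higher.

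By role, the nearest relatives of the members were mixed. Among the angulins and MARVEL proteins, Ildr1, the angulin-2 gene, gave 0.40 (adjusted p = 0.253). Its other tested probe, ILMN_2857684, gave 0.61 (adjusted p = 0.0923), with every knockout array above every wild-type array. Of 4 tested relatives of the JAM and CAR family, 1 was higher and 0 were lower, and Esam, an endothelial adhesion protein, gave -0.37 (adjusted p = 0.177), with every knockout array below every wild-type array. Of 5 tested scaffolds and linkers and 7 tested genes of the polarity complexes, 0 passed (1 and 0 higher, 0 and 1 lower, at an unadjusted p under 0.05), with medians of 0.12 and -0.40. The median of the polarity genes is the value of Prkcz, an atypical protein kinase C, whose other tested probe, ILMN_1221045, gave 0.52 (adjusted p = 0.113) with every knockout array above every wild-type array. With that probe in its place, an alternative chosen after seeing the data, the median was 0.23. Rab13, a GTPase of junction assembly, gave 0.48 (adjusted p = 0.092) with separate groups.

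**Figure D4:**
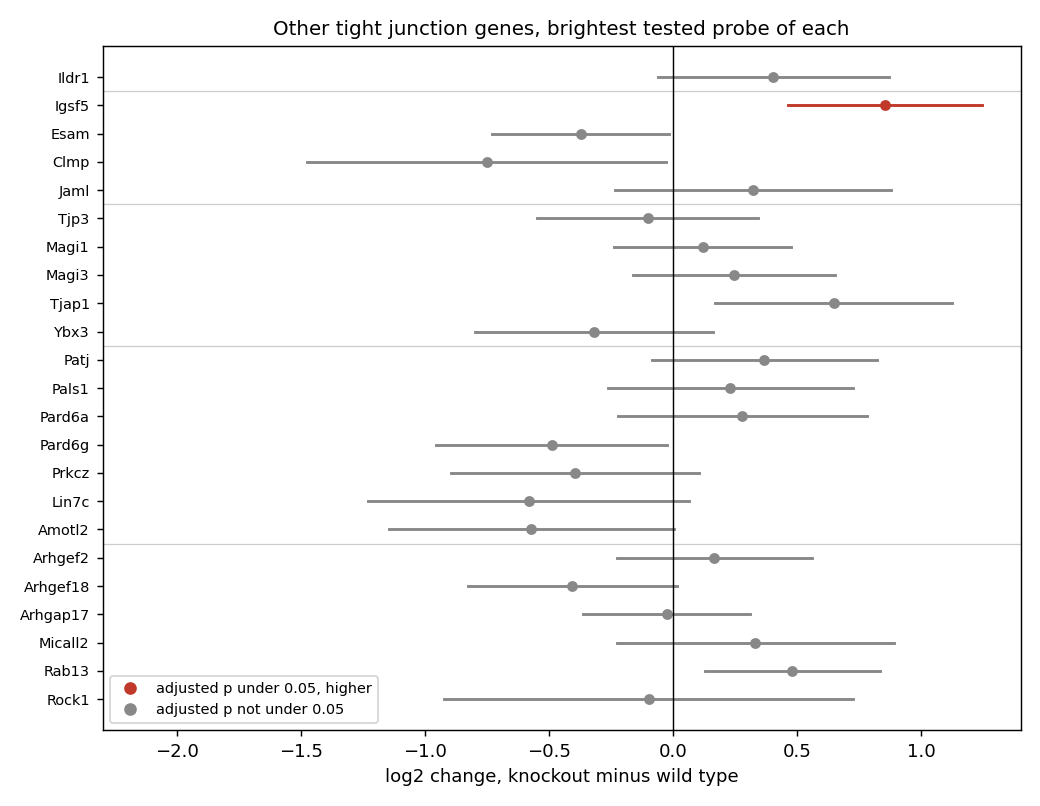
Log2 change, knockout minus wild type (horizontal axis), with its 95% interval, for the brightest tested probe of 23 other tight junction genes; grey lines part the 5 lists. Igsf5, at 0.85, is the 1 gene past an adjusted p of 0.05.

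Markers of lung cell types differed between the same arrays, and they stand here beside the members. In bulk lung, fewer cells of a type and less RNA per cell cannot be told apart. Each gene is counted by its brightest tested probe, as for the junction genes, and 3.68% of all genes tested that way were higher and 5.11% lower. Of 9 tested markers of epithelium in general, 5 were higher in the knockout and 0 were lower, with a mean list level of 11.28 to 11.39 in the knockout, against 10.60 to 10.80 in the wild type. The 5 were the keratins Krt8 (0.92), Krt18 (0.92), Krt19 (0.66) and Krt7 (0.62), and Esrp2 (1.06). Cdh1, the defining cadherin of epithelium, gave 0.15 (adjusted p = 0.561). Also not past were Grhl2 (0.09, adjusted p = 0.827), Esrp1 (0.33, adjusted p = 0.248) and Elf3 (0.66, adjusted p = 0.0821). The list therefore rose mainly by its keratins. Lsr, Marveld3 and Cxadr moved in the direction of this list, whose part in those changes was not tested. The 5 higher markers became 2 with median scaling, 2, 1 and 2 without knockouts 1, 2 and 3, and 3 without wild type 2 or wild type 4. Of 10 markers of alveolar type 2 cells, 2 were higher and 0 lower, with 1 higher without any of the knockouts, wild type 2 or wild type 4, and of 5 markers of type 1 cells 0 passed (1 higher at an unadjusted p under 0.05). The dimmer probes did not always match these counts. For Aqp5, a type 1 cell water channel, ILMN_1259982 was higher by 1.11 (adjusted p = 0.0184), and for Lyz1, a lysozyme counted among the type 2 markers, ILMN_2736867 gave -1.10 (adjusted p = 0.045), against 0.02 for its brightest probe.

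Of 10 tested markers of vascular endothelium, 0 were higher in the knockout and 7 were lower. All 10 had groups that did not overlap, where 12.4% of all tested probes lay wholly below the wild type. That share counts every tested probe, and none was computed over the brightest probe of each gene. The mean list level was 10.95 to 11.26 in the knockout, against 12.09 to 12.36 in the wild type, and Pecam1 and Cdh5 gave -1.18 and -1.20. The 7 ran from 6 to 8 with 1 array left out, and Kdr and Erg were detected on too few arrays to test. Of 6 fibroblast markers and 7 of smooth muscle and pericytes, 3 each were lower and 0 were higher, which became 0 to 1 and 1 to 4 with 1 array left out. The 5 platelet markers were all below zero with 0 past the threshold by their brightest probes (5 at an unadjusted p under 0.05, and 3 with median scaling or 4 without wild type 3 at the adjusted one), and their mean level overlapped, at 7.73 to 8.43 in the knockout, against 8.21 to 9.80 in the wild type. Dimmer probes of Ppbp, a platelet chemokine (-1.50, adjusted p = 0.0456), Egfl7 of endothelium (-0.61, adjusted p = 0.0298) and Acta2 of smooth muscle (-0.59, adjusted p = 0.048) did pass. Of the airway markers 0 of 4 passed, of the macrophage markers 1 of 3 was higher (0 with any 1 array left out), and of the lymphocyte and red cell markers 1 of 4 and 1 of 3 were lower. Tjp1 fell, and F11r and Jam2 had negative changes without passing, on the arrays where the endothelial, fibroblast and smooth muscle lists were low. The part of any of these cell types in those values was not tested.

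**Figure D5:**
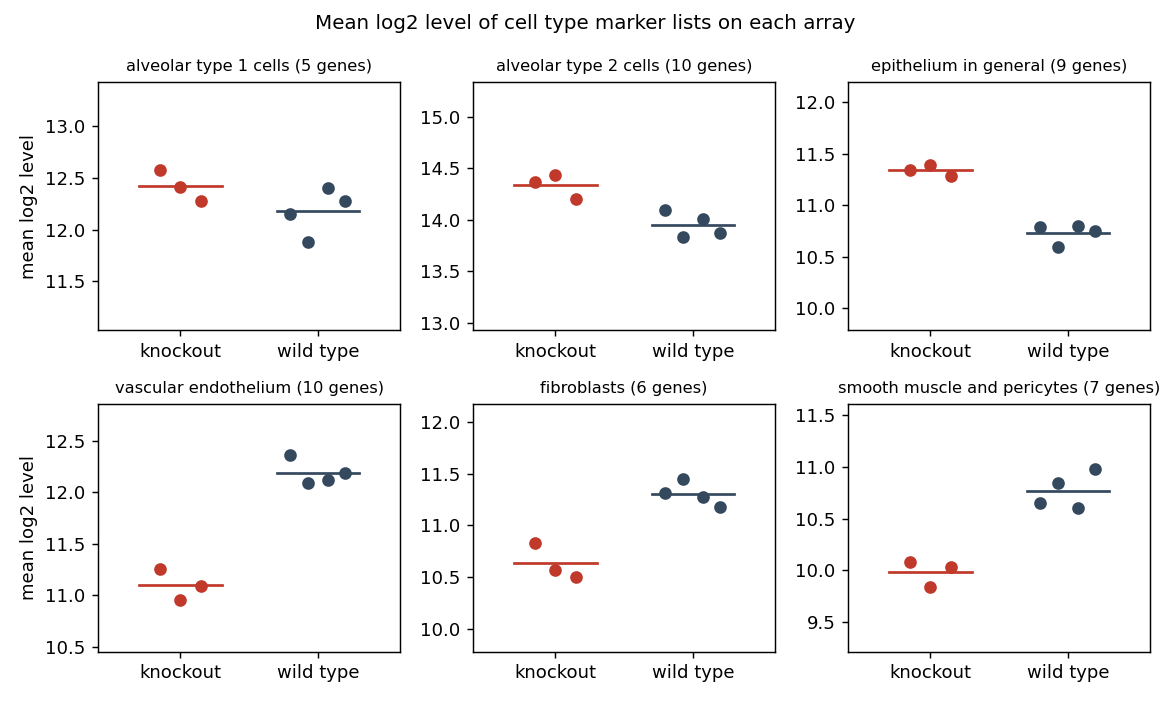
Mean log2 level (vertical axis) of 6 cell type marker lists on each knockout and wild-type array; points are arrays and bars are group means. The epithelial list lay at 11.28 to 11.39 in the knockout and 10.60 to 10.80 in the wild type, and the endothelial list at 10.95 to 11.26 in the knockout and 12.09 to 12.36 in the wild type.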

How the data were processed

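RNA from whole lungs (1 µg, per the labels) was hybridized to Illumina MouseRef-8 arrays. The protocol names 4 replicates for each genotype, of which 1 knockout was not analysed here. The deposited intensity of each probe is a mean bead signal without background subtraction or normalization, given with a detection p-value, per the file headers. The authors' processed log2 values, used as an alternative, come, per the submitters' processing notes, from R 2.11.1 and lumi 1.14.0. Their exact transformation is not given in the sources used here.

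Signals were corrected with limma 3.58.1 in R 4.3.3 (neqc, background from the detection p-values, offset of 16, quantile normalization, log2). Tested probes had a detection p under 0.01 on 3 or more arrays; they were compared with lmFit and eBayes, knockout minus wild type, with Benjamini-Hochberg adjustment over all 11902 probes and a threshold of 0.05. Exact permutation tests of single probes used all 35 splits. Probes were named from the platform annotation, with list genes matched through RefSeq gene IDs of GRCm38.p6. Where a probe was detected on no knockout array, its fold is a bound, with undetected arrays raised to the lowest detected level. Figures used Python 3.11.15 with matplotlib 3.10.9.

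All 18 member probes are named, besides Cldn18, list genes past the threshold, and further list genes chosen after their values were seen. The members and lists were chosen with earlier results of these data known. Alternatives covered background correction, scaling, filters, the variance model, array weights, the authors' values, each array left out and a replicate block. Fits were tested on simulated data.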

Additional observations from a re-analysis of the deposited data

Results flagged for a closer look

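In 3 of 19 probes looked at, 1 of the 4 wild-type arrays stood apart from the other 3 by Dixon's test, which chance alone does in about 1 in 20 groups. Each time the array was wild type 2. Cgnl1 ILMN_3003864 stood at 6.35 in wild type 2, against 7.73 to 7.78 on the other wild-type arrays. Cxadr ILMN_2514377 stood at 5.20 in wild type 2, against 9.53 to 10.03 on the others. Lsr ILMN_2716185 stood at 5.84 in wild type 2, against 5.63 to 5.66 on the others, and was detected on no array, so its level there is background.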

How the results depend on the processing

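Over 15 alternatives, not counting the replicate block, the log2 changes of the tested member probes and Cldn18 kept their direction in all 219 values. Of these, 194 kept their side of the threshold. Many of the 219 could not reverse. Dropping the filter, requiring detection on all 7 arrays, or changing the variance model left each log2 change as it was. Leaving out 1 array could not reverse a probe whose groups did not overlap. Every alternative used values normalized between arrays, so the 219 do not speak for the raw signals. The 3 member probes called higher became 1 with median scaling and 5 with array weights, and ran from 1 to 4 when 1 array was left out. The 1 called lower became 0 with the authors' values and 2 with array weights, and ran from 0 to 1 with 1 array left out. The 1 other junction gene called higher became 0 with median scaling and 2 with array weights, and ran from 0 to 2 with 1 array left out. Median scaling moved the median change of all probes to -0.14, against 0.02 as reported. The change of Cxadr ILMN_3089725 there was 0.32 (limma adjusted p = 0.426), which stands 0.46 above the median of all probes. The cause of the differences between settings was not tested. Over all probes, calls numbered 1056 as reported, 1876 with array weights and 333 without knockout 2. With the replicate number as a block, 1 member probe was called higher, 0 lower and 0 other junction genes higher, and 401 of all probes passed. The numbers were not shown to pair the samples: deviations of same-numbered arrays correlated at -0.02, -0.0044 and -0.14, and no array correlated best with its own number. With 3 and 4 arrays, the smallest exact p is 0.0286. The probes of Mpdz and the dimmer probes of Jam2 were near background, while Jam2 ILMN_1227559 was detected on every array.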

Other observations

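Wild type 2 was the lowest of the 4 wild-type arrays for 10 of the 14 tested member probes, where it was lowest for 25.8% of all tested probes. Wild types 1 and 3 were the lowest for 0 of the 14, against 32.6% and 17.6% of all tested probes. The mean level of the epithelial marker list was also lowest in wild type 2, at 10.60, against 10.75 to 10.80 on the other wild-type arrays. Within the knockout, knockouts 1, 2 and 3 were the lowest array for 5, 6 and 3 of the 14 probes.

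Probes of 1 gene did not always pass together. Of 3 genes with more than 1 tested probe, Marveld3 and Cxadr had a probe past the threshold and at least 1 that was not, with all their probes in the same direction.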
